A study of Mus musculus with 2 samples.

Results

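The 6 genes of the platelet-derived growth factor (PDGF) system, the ligand genes *Pdgfa*, *Pdgfb*, *Pdgfc* and *Pdgfd* and the receptor genes *Pdgfra* and *Pdgfrb*, were followed in cultured mouse aortic vascular smooth muscle cells (VSMCs). They were taken by gene symbol from the 31053 genes counted, and all 6 were detected. The cells were primary VSMCs of wildtype mice, enzymatically isolated from aortae pooled per preparation and grown for 5 days in medium with fetal calf serum, with no further treatment. VSMCs are known to lose contractile markers in such culture. By the study's methods, mice without atherosclerosis were on a C57BL6/N background and both sexes were used, while the age and sex of the donors of these libraries are not given in the sources used here. Libraries of 2 biological replicates of this 1 condition were profiled by droplet-based single-cell RNA sequencing (scRNA-seq), in which every captured mRNA molecule is counted once by its unique molecular identifier (UMI), so that n = 2 libraries throughout.

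PDGF ligands are secreted dimers, and their receptors are cell-surface tyrosine kinases. PDGFRα binds the A, B and C chains, whereas PDGFRβ binds the B and D chains. The A and B chains are cut to their active form inside the cell, and the C and D chains outside it by proteases such as tissue plasminogen activator and urokinase. In the vessel wall, endothelial cells (ECs) are known to make PDGF-B and to recruit mural cells that carry PDGFRβ, and PDGF is a classical mitogen that drives VSMCs away from the contractile state.

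The deposited counts summed to 127949633 UMIs in replicate 1 and 132561822 UMIs in replicate 2. Cells were barcodes with 3000 or more UMIs, 300 or more detected genes and a mitochondrial share below 20%, which gave 4866 and 6824 cells with medians of 22234.5 and 16310 UMIs. The libraries shared 9 cell barcodes. Cells were put in classes by genes outside the PDGF system. ECs had at least 2 UMIs in each of at least 2 of *Pecam1*, *Cdh5*, *Cldn5* and *Gja4* (102 and 141 cells). Of the rest, cycling cells had at least 6 UMIs of *Mki67*, *Top2a* and *Cenpf* together (1450 and 1651 cells). The non-cycling cells were split by smooth muscle myosin heavy chain, *Myh11*, into *Myh11*-high cells with at least 5 UMIs (313 and 574 cells) and *Myh11*-low cells with at most 1 UMI (2771 and 4152 cells), while 230 and 306 cells with 2 to 4 UMIs were in neither class. Markers outside these rules went with the labels. The summed level of 5 other contractile genes was 24076 and 25830 CPM (counts scaled to 1000000 UMIs per library and class) in *Myh11*-high cells and 6157 and 3382 CPM in *Myh11*-low cells, and 8 other endothelial genes summed to 2191 and 2435 CPM in ECs and to at most 21.2 CPM in any other class. A list of 8 adventitial fibroblast genes, all of them detected in every class, summed to 334 and 135 CPM in *Myh11*-high and 608 and 897 CPM in *Myh11*-low cells, 403 and 543 CPM in cycling cells and 489 and 634 CPM in ECs, in which *Cd34*, also an endothelial gene, made up 265 and 405 CPM. The 5 macrophage genes summed to 1.02 and 1.46 CPM in *Myh11*-high, 9.82 and 3.56 CPM in *Myh11*-low and 9.34 and 1.21 CPM in cycling cells, and to 13.8 and 5.14 CPM in ECs, where all of it was *Cd14*.

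The genes lie apart in the genome (GRCm38, GENCODE M21). *Pdgfa* (ENSMUSG00000025856) is at chr5:138976014-138997370 on the minus strand, *Pdgfb* (ENSMUSG00000000489) at chr15:79995874-80014977 on the minus strand, *Pdgfc* (ENSMUSG00000028019) at chr3:81036416-81214040 on the plus strand, *Pdgfd* (ENSMUSG00000032006) at chr9:6168584-6378850 on the plus strand, and *Pdgfra* (ENSMUSG00000029231) at chr5:75152292-75198215 on the plus strand. Genes on the opposite strand overlap *Pdgfa* (6330403L08Rik), *Pdgfb* (Gm41361), *Pdgfc* (Gm16000), *Pdgfd* (*Ddi1*) and *Pdgfra* (Gm42802). These partners were counted as genes of their own, but whether the counting used strand is not given in the sources used here, so some of their RNA may not be told apart from that of the member.

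The 250 bases before the RefSeq start sites of 3 members are shown, which took 3 different courses over the *Myh11* classes, as described in what follows. The reference used held no window for *Pdgfb* or *Pdgfrb*, so these members were not searched. The windows of *Pdgfa* are described below without their sequence. *Pdgfc* was higher in *Myh11*-high than in *Myh11*-low cells, *Pdgfra* had a higher level in *Myh11*-low than in *Myh11*-high cells, and *Pdgfd* differed little. The windows are chr3:81036166-81036415, chr9:6168236-6168485 and chr5:75152001-75152250 (GRCm38.p6, all plus strand, 5′ to 3′). Capitals mark a CArG box (the element bound by serum response factor in many contractile genes), a TATA box (TATAAA) or a GC box (GGGCGG), each searched on both strands.
Pdgfc: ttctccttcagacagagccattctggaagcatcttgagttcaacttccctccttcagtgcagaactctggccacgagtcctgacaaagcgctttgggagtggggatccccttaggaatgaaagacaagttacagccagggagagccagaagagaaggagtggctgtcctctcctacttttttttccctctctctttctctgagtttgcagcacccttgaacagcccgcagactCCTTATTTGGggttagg
Pdgfd: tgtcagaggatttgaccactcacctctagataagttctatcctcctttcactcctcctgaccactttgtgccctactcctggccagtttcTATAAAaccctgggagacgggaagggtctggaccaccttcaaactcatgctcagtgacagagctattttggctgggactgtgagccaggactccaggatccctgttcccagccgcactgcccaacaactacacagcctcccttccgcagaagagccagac
Pdgfra: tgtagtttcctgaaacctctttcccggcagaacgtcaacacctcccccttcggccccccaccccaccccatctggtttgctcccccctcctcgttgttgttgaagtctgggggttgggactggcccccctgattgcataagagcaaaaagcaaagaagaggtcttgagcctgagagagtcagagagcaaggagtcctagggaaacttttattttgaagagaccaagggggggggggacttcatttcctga
The *Pdgfc* window held 1 CArG box, at positions -17 to -8 from the start site, which 1.47% of the 32851 RefSeq windows of this length held. The *Pdgfd* window held 1 TATA box, found in 12.4% of all windows, and the *Pdgfra* window held none of the 3 motifs. A pair of windows listed for *Pdgfa*, which lie inside the annotated gene and overlap exons of other transcripts, held 1 and 2 GC boxes, found in 32.7% of all windows. They held no CArG box. *Pdgfa* was also higher in *Myh11*-high cells, and a link between these motifs and the levels was not tested. A match is a description of the letters, and binding was not measured.

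*Pdgfa*, the ligand of PDGFRα that was found in the most cells, had its highest level in *Myh11*-high cells, at 193 CPM in replicate 1 and 203 CPM in replicate 2. *Myh11*-low cells had 61.1 and 73.1 CPM, cycling cells 64.3 and 101 CPM, and ECs 63.7 and 82.8 CPM. The *Myh11*-high class stood above every other class in both libraries, and the other classes overlapped one another. At least 1 *Pdgfa* UMI was found in 89.8% and 91.5% of *Myh11*-high cells and in 57.8% and 55.0% of *Myh11*-low cells, and after thinning every cell to 3000 UMIs in 40.9% and 43.3% against 15.6% and 18.2%. The log2 fold change of *Myh11*-low against *Myh11*-high cells was -1.64 ± 0.23 (SE; edgeR quasi-likelihood test, adjusted p = 0.0201).

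*Pdgfc*, the second PDGFRα ligand of these cells, had a lower level but the same order. *Myh11*-high cells had 14.5 and 14.2 CPM (114 and 166 UMIs), *Myh11*-low cells 2.79 and 3.86 CPM, and cycling cells 3.13 and 4.44 CPM, so that only the *Myh11*-high class stood clear of the other non-endothelial classes named here. A UMI was found in 24.3% and 23.5% of *Myh11*-high cells (95% intervals 19.6% to 29.4% and 20.1% to 27.2%, exact binomial, counting error only) and in 4.94% and 5.59% of *Myh11*-low cells. The log2 fold change was -2.20 ± 0.25 (edgeR, adjusted p = 0.0117). In ECs only 3 and 3 UMIs were counted.

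*Pdgfb*, the ligand of both receptors, was mainly an EC transcript, and its small remainder also went with *Myh11*. ECs had 96.3 and 78.2 CPM (189 and 137 UMIs), which were 79.1% and 76.5% of all *Pdgfb* UMIs in cells, although ECs were 2.10% and 2.07% of the cells. *Myh11*-high cells had 3.69 and 1.37 CPM (29 and 16 UMIs), cycling cells 0.246 and 0.511 CPM (11 and 19 UMIs), and *Myh11*-low cells 0.167 and 0.030 CPM (10 and 2 UMIs). Within the libraries, the level in *Myh11*-high cells was 22.1 times (counting interval 10.5 to 50.8) and 46.4 times (10.9 to 416) that in *Myh11*-low cells. The log2 fold change of *Myh11*-low against *Myh11*-high cells was -4.69 ± 0.77 (edgeR, adjusted p = 0.0297), but with every cell thinned to 3000 UMIs it was -2.71 with an adjusted p of 0.308.

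The *Pdgfb* UMIs of *Myh11*-high cells were in 18 and 15 cells. Cells rich in *Pecam1*, *Cdh5*, *Cldn5* and *Gja4* had been taken out of this class by the rule, so their low level in it is no evidence on the source of *Pdgfb*. The 8 endothelial genes outside the rule summed to 21.2 and 13.6 CPM in *Myh11*-high and to 10.7 and 9.75 CPM in *Myh11*-low cells, with *Esam* alone at 13.3 and 9.93 CPM in the former, and their part in the result was not tested. The *Pdgfb* cells of the *Myh11*-high class had more *Myh11* (893 and 986 CPM) than the other cells of that class (626 and 611 CPM), and *Pdgfra* was found in 1 of 18 and 0 of 15 of them.

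*Pdgfd*, a ligand of PDGFRβ, was the member with the most even level. It was at 23.4 and 38.9 CPM in *Myh11*-high, 24.8 and 30.4 CPM in *Myh11*-low, 25.8 and 29.1 CPM in cycling cells and 28.0 and 34.8 CPM in ECs. All classes overlapped, and replicate 2 was the higher one in every class. The log2 fold change of *Myh11*-low against *Myh11*-high cells was -0.26 (95% interval -0.84 to 0.32; edgeR, adjusted p = 0.655), and within the libraries the difference had opposite signs, 0.08 in replicate 1 and -0.35 in replicate 2.

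**Figure D1:**
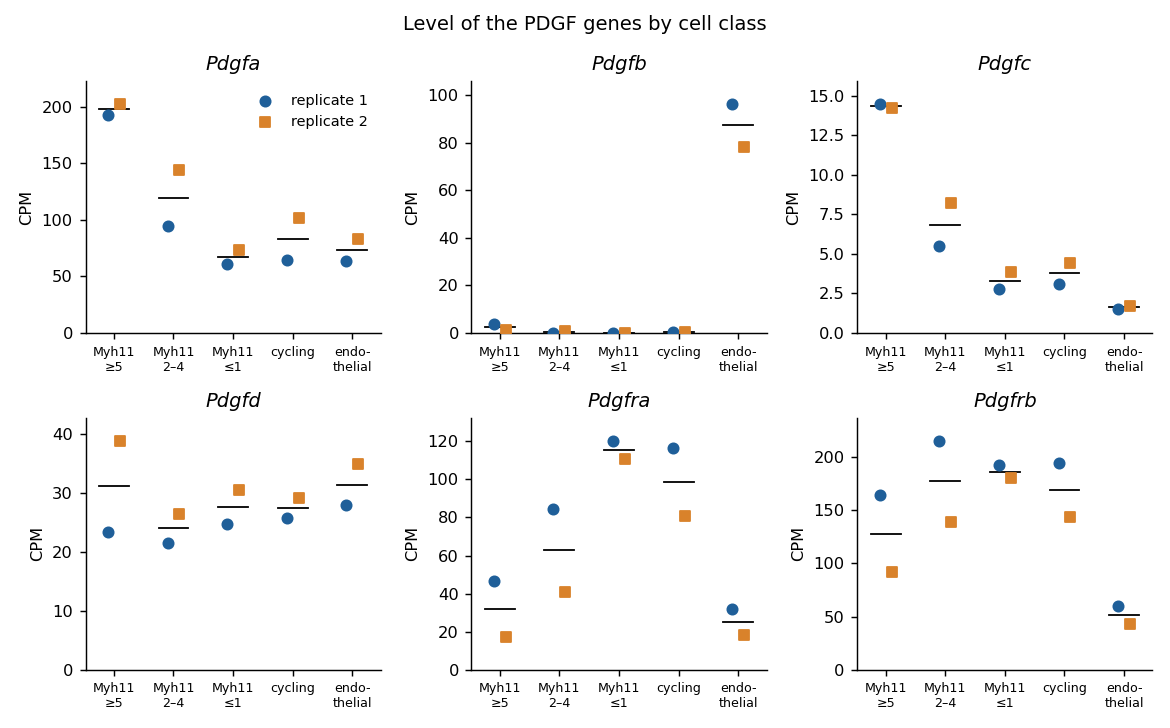
Level in CPM of each PDGF gene (y axis, linear, from 0) in 5 cell classes (x axis). Circles are replicate 1, squares replicate 2, and black lines the mean of both libraries. *Pdgfa* and *Pdgfc* are highest in *Myh11*-high cells, *Pdgfb* stands out in ECs at 96.3 and 78.2 CPM, and both receptor genes are lowest in ECs or *Myh11*-high cells.

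*Pdgfra*, the gene of PDGFRα and a marker used for modulated VSMCs, ran in the opposite direction to *Pdgfa* and *Pdgfc*. It was at 46.6 and 17.2 CPM in *Myh11*-high cells and at 120 and 111 CPM in *Myh11*-low cells. Cycling cells had 117 and 80.6 CPM, which overlapped with *Myh11*-low cells, and ECs had 32.1 and 18.3 CPM, which overlapped with *Myh11*-high cells. The *Myh11*-high and *Myh11*-low classes did not overlap, but the libraries lay far apart in *Myh11*-high cells. The log2 difference was 1.37 within replicate 1 and 2.69 within replicate 2. In the fit it was 1.78 ± 0.47 and did not pass the threshold (edgeR, adjusted p = 0.103), and with the library as a block it was 1.91 ± 0.25 and passed it (edgeR, adjusted p = 0.0024).

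*Pdgfrb* (ENSMUSG00000024620, chr18:61045150-61085061, plus strand), the gene of PDGFRβ and a general marker of mural cells, was detected in most cells outside the EC class. It was at 164 and 91.5 CPM in *Myh11*-high, 193 and 180 CPM in *Myh11*-low and 195 and 143 CPM in cycling cells. The *Myh11*-high and *Myh11*-low classes did not overlap, while cycling cells overlapped with both. The log2 fold change of *Myh11*-low against *Myh11*-high cells was 0.46 ± 0.31 (edgeR, adjusted p = 0.500), and with the library as a block it was 0.52 ± 0.15 (edgeR, adjusted p = 0.0439). A UMI was found in 87.2% and 72.1% of *Myh11*-high and 89.3% and 84.2% of *Myh11*-low cells, against 24.5% and 19.9% of ECs, which had 60.1 and 43.4 CPM. Median depths were 23754 and 18463 UMIs in *Myh11*-high cells, 19734 and 14544.5 UMIs in *Myh11*-low cells, and 14629 and 10250 UMIs in ECs.

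Of the 6 members, 3 were lower and 0 higher in *Myh11*-low than in *Myh11*-high cells at an adjusted p under 0.05, where 2.43% of the 14095 genes tested were lower and 0.873% higher. With the library as a block, the same comparison called *Pdgfa*, *Pdgfb* and *Pdgfc* lower (11.6% of all genes) and *Pdgfra* and *Pdgfrb* higher (11.2% of all genes). The number of UMIs of *Pdgfra* per UMI of *Pdgfrb* was 0.284 and 0.188 in *Myh11*-high cells and 0.625 and 0.616 in *Myh11*-low cells, a shift of the receptor mixture toward *Pdgfra* in both libraries.

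**Figure D2:**
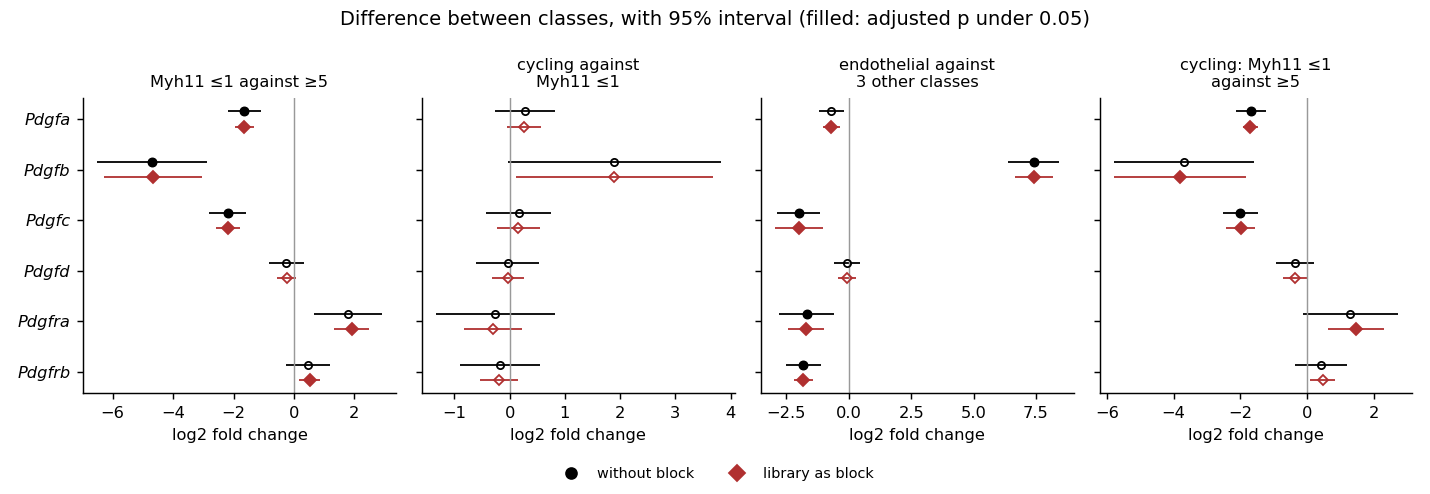
Log2 fold change of each member (x axis) with its 95% interval in 4 comparisons, without (black circles) and with (red diamonds) the library as a block; filled symbols passed an adjusted p of 0.05. *Pdgfa*, *Pdgfb* and *Pdgfc* lie to the left of 0 and *Pdgfra* to the right in both comparisons of *Myh11*-low with *Myh11*-high cells.

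The levels of *Pdgfa* and *Pdgfra* changed over the number of *Myh11* UMIs per cell both across the class limits and between bins within a class. The steps were uneven, as *Pdgfra* in replicate 2 was at 12.2 CPM at 10 to 19 and 11.5 CPM at 20 or more UMIs. Sums per bin cannot tell a gradual change per cell from a changing mix of cells. From cells with 0 to cells with at least 20 *Myh11* UMIs, *Pdgfa* went from 59.6 to 256 CPM in replicate 1 and from 71.1 to 231 CPM in replicate 2, with a higher value from each of the 6 bins to the next in both libraries. *Pdgfra* went from 122 to 19.9 CPM and from 113 to 11.5 CPM, with a lower value from each bin to the next. The bins beside the class limits, cells with 1, 2 to 4 and 5 to 9 UMIs, had 108, 84.3 and 72.5 CPM of *Pdgfra* in replicate 1 and 89.4, 41.1 and 24.6 CPM in replicate 2. *Pdgfc* went from 2.58 to 20.6 CPM and from 3.78 to 15.5 CPM (not at every bin in replicate 2, with 14.7 CPM at 5 to 9 and 13.2 CPM at 10 to 19 UMIs). *Pdgfrb* went from 187 to 121 CPM and from 180 to 96.6 CPM (not at every bin, with 234 CPM at 1 UMI in replicate 1). *Pdgfd* went from 25.3 to 27.3 CPM and from 30.5 to 38.0 CPM, with no steady course. *Pdgfb* was at 0.333 and 0.207 CPM at 5 to 9 UMIs, at 2.44 and 1.65 CPM at 10 to 19 UMIs, and reached 8.16 and 3.50 CPM at 20 or more UMIs. Most *Pdgfb* UMIs of *Myh11*-high cells of replicate 1, 23 of 29, were thus in 95 cells with the most *Myh11*, whereas in replicate 2 the 86 such cells held 7 of 16.

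**Figure D3:**
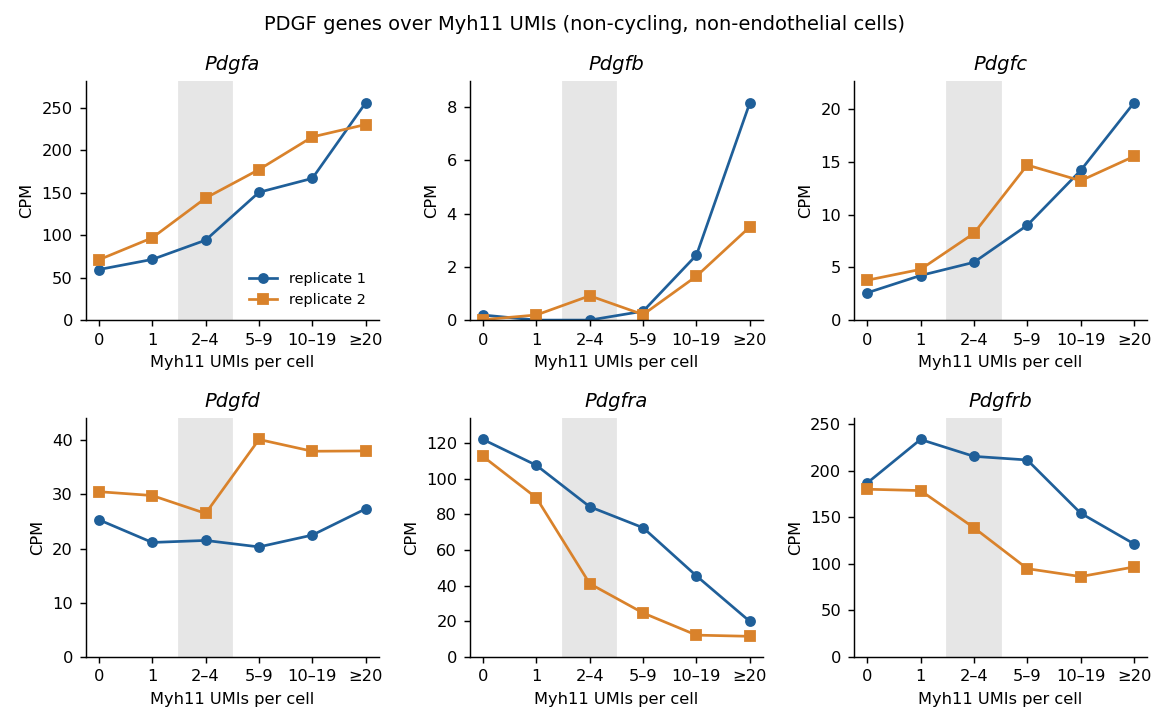
Level in CPM of each member (y axis, linear, from 0) in non-cycling, non-endothelial cells with 0, 1, 2–4, 5–9, 10–19 and at least 20 *Myh11* UMIs (x axis). Circles are replicate 1, squares replicate 2, and the grey band marks cells in neither *Myh11* class. *Pdgfa* climbs from 59.6 to 256 CPM and from 71.1 to 231 CPM while *Pdgfra* declines from 122 to 19.9 CPM and from 113 to 11.5 CPM.

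Among the non-endothelial classes, the adventitial list was lowest in *Myh11*-high cells, as *Pdgfra* was, while in ECs the list was higher than in *Myh11*-high cells and the level of *Pdgfra* overlapped between the 2 classes. Without the cells that had a UMI of *Pi16*, *Clec3b*, *Dpep1* or *Scara5*, genes of adventitial fibroblasts, 208 and 537 *Myh11*-high cells were left with 28.3 and 13.3 CPM of *Pdgfra*, and 1233 and 2687 *Myh11*-low cells with 103 and 99.8 CPM. The 105 and 37 *Myh11*-high cells that had such a UMI were at 80.1 and 61.8 CPM of *Pdgfra* and had 0 *Pdgfb* UMIs. In this alternative, chosen after the data were seen, the log2 fold change of *Pdgfra* was 2.23 (edgeR, adjusted p = 0.0243) and that of *Pdgfrb* was 0.59 (adjusted p = 0.254). *Pdgfa*, *Pdgfb* and *Pdgfc* were lower in *Myh11*-low cells, at -1.62 (adjusted p = 0.0083), -4.49 (0.0403) and -2.15 (0.00342). The 4 genes are sparse, so cells without such a UMI are not shown to be free of fibroblasts, and the part of these cells in the result was not tested.

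No member passed the adjusted threshold between cycling and *Myh11*-low cells. In edgeR 0 of the 6 members did, where 5.12% of 14095 genes did, and DESeq2 also called 0, where it called 1264 genes. Without the block, 0 members had an unadjusted p under 0.05 in edgeR, where 15.5% of all genes had one. With the library as a block 1 member had one (35.8% of all genes), and in DESeq2 also 1 (16.7% of all genes). The log2 fold change of *Pdgfra* in cycling against *Myh11*-low cells was -0.26 (95% interval -1.33 to 0.82), that of *Pdgfrb* -0.17 (-0.89 to 0.56) and that of *Pdgfa* 0.28 (-0.26 to 0.82). These intervals are wide, so that the classes were not shown to be alike. *Pdgfb* had the widest interval (-0.04 to 3.82), with 11 and 19 UMIs in cycling cells. The comparison does not match *Myh11*, as 160 and 305 cycling cells had at least 5 *Myh11* UMIs and 107 and 136 had 2 to 4. Cycling cells with at most 1 had 48.2 and 67.9 CPM of *Pdgfa*, against 61.1 and 73.1 CPM in *Myh11*-low cells. They had 125 and 105 CPM of *Pdgfra*, against 120 and 111 CPM, and 196 and 161 CPM of *Pdgfrb*, against 193 and 180 CPM. These differences were not tested.

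Within cycling cells, *Pdgfa* and *Pdgfc* were again lower where *Myh11* was low, while *Pdgfb* and *Pdgfd* did not pass the threshold. Cycling cells with at least 5 *Myh11* UMIs (160 and 305 cells) had 165 and 192 CPM of *Pdgfa*, and those with at most 1 UMI (1183 and 1210 cells) had 48.2 and 67.9 CPM, a log2 fold change of -1.68 ± 0.20 (edgeR, adjusted p = 0.00509). For *Pdgfc* the levels were 9.79 and 9.54 CPM against 2.24 and 2.82 CPM (-1.99 ± 0.23, adjusted p = 0.00477). These members were 2 of 6, where 2.30% of the 12890 genes tested were lower and 0.574% higher. *Pdgfb* was at 4 and 16 UMIs against 5 and 2 UMIs, with ratios of 5.17 (counting interval 1.03 to 24.0) and 27.0 (6.36 to 242), and -3.69 ± 0.91 on the log2 scale (edgeR, adjusted p = 0.0837). *Pdgfd* was at 31.0 and 34.6 CPM against 25.5 and 27.6 CPM (-0.36 ± 0.24, adjusted p = 0.558). *Pdgfra* was at 70.1 and 19.2 CPM against 125 and 105 CPM, or 1.31 ± 0.62 (adjusted p = 0.382). With the library as a block, *Pdgfb* (adjusted p = 0.0193; 9.87% of all genes lower) and *Pdgfra* (1.48 ± 0.37, adjusted p = 0.0277; 7.11% of all genes higher) passed as well, and *Pdgfrb* did not (0.47 ± 0.17, adjusted p = 0.0915).

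UMIs of both receptor genes were found in most *Myh11*-low cells, at about the share that independent detection gives, and in fewer *Myh11*-high cells. In *Myh11*-low cells, 68.8% and 58.4% had UMIs of both genes, 4.55% and 6.67% of *Pdgfra* only, 20.5% and 25.8% of *Pdgfrb* only, and 6.13% and 9.13% of neither. If the genes were detected independently at like depth (within 10 bins of UMI count per library and class), 68.1% and 56.7% would have had both, so that the observed share was 1.01 and 1.03 times the expected one. As *Pdgfrb* had a UMI in 89.3% and 84.2% of these cells, the ratio had little room above 1 and does not show independence. With cells thinned to 3000 UMIs it was 1.03 and 1.08. In *Myh11*-high cells the shares with both were 41.5% and 14.6% against 38.1% and 13.2% expected, or 1.09 and 1.11 times. *Pdgfra* without *Pdgfrb* was thus found in 0.958% and 2.44% of *Myh11*-high cells, and *Pdgfrb* without *Pdgfra* in 45.7% and 57.5%. The ratio in *Myh11*-high cells was 1.24 and 1.49 with cells thinned to 3000 UMIs. It was 1.20 and 1.38 at 2 UMIs of each gene, with 65 and 29 such cells. These are descriptions of cells that share a library, with no test.

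**Figure D4:**
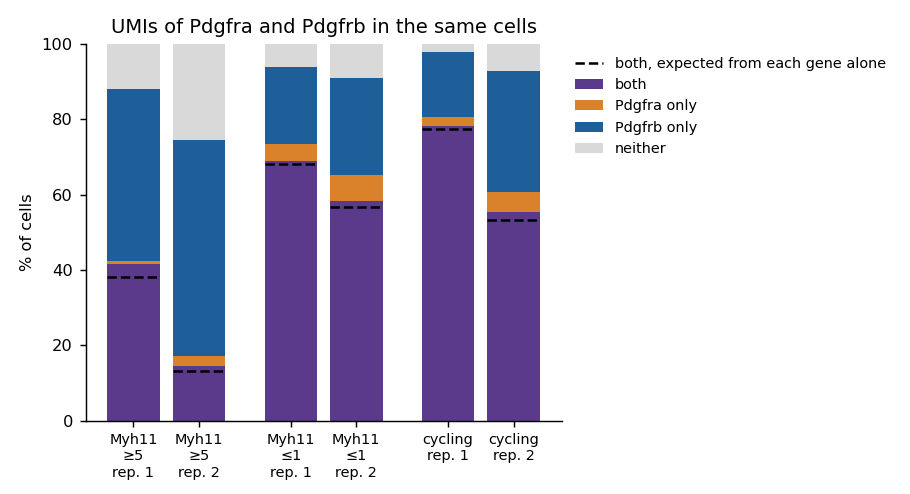
Percent of cells (y axis, stacked) with UMIs of both receptor genes, of only one of them or of neither, for 3 classes in replicates 1 and 2 (x axis). The dashed line is the share with both that independent detection at like depth gives, and in *Myh11*-low cells it lies at 68.1% and 56.7%, close to the observed 68.8% and 58.4%.

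Among *Myh11*-low cells between the quartiles of UMI count, *Pdgfrb* was detected with and without *Pdgfra*. It was at 194 and 167 CPM with 0 *Pdgfra* UMIs and at 197 and 202 CPM with at least 5. *Acta2*, a contractile gene, was at 4637 and 2770 CPM with 0 *Pdgfra* UMIs and 3687 and 2016 CPM with at least 5. *Pdgfa* and its receptor gene were found together in 44.1% and 37.0% of *Myh11*-low cells, 0.974 and 0.977 times the share expected at like depth. In *Myh11*-high cells *Pdgfc* and *Pdgfra* were together in 18 and 22 cells, 0.528 and 0.857 times the expected share, and *Pdgfb* and *Pdgfra* in 1 and 0 cells, 0.124 and 0 times. For *Pdgfb* the expected shares were 2.57% of 313 and 0.408% of 574 cells, so these ratios rest on few cells. The expectation matches depth but not *Myh11*, with which the levels of these genes also changed.

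ECs differed from the mean of the 3 other classes in 4 members. *Pdgfb* was higher in ECs by 7.40 ± 0.43 on the log2 scale (edgeR, adjusted p = 8.26e-05). *Pdgfrb* (-1.82 ± 0.29, adjusted p = 0.00589), *Pdgfra* (-1.69 ± 0.46, adjusted p = 0.0387) and *Pdgfc* (-2.00 ± 0.36, adjusted p = 0.00918) were lower. These were 4 of 6 members, where 23.6% of the 14095 genes were called in either direction. *Pdgfa* was at -0.70 ± 0.20 (adjusted p = 0.0506), and at -0.70 ± 0.14 with the library as a block (adjusted p = 0.0067), which made 5 of 6 members where 36.7% of all genes were called. The mean weighs the 3 classes alike. In each library *Pdgfa* was no lower in ECs (63.7 and 82.8 CPM) than in *Myh11*-low cells (61.1 and 73.1 CPM), and *Pdgfra* in ECs overlapped with *Myh11*-high cells. *Pdgfd* was at -0.07 (95% interval -0.60 to 0.46). For *Pdgfc*, the 3 UMIs per library make the ratio of non-endothelial to endothelial cells uncertain, at 2.49 (counting interval 0.848 to 12.1) and 3.05 (1.04 to 14.8).

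Most receptor UMIs of ECs lay in a few EC barcodes that also held fibrillar collagen RNA. Of 102 and 141 ECs, 17 and 16 had at least 20 UMIs of *Col1a1* and *Col1a2*, with a median depth of 38986 and 29926 UMIs, and these held 91.5% and 78.9% of the *Pdgfrb* and 90.5% and 96.9% of the *Pdgfra* UMIs of ECs. The other 85 and 125 ECs had 4.94 and 0.764 CPM of *Pdgfra* and 8.24 and 12.2 CPM of *Pdgfrb*. Free RNA at the share estimated from the non-endothelial cells of these libraries (3.16% and 3.81% of UMIs) would give 2.30 and 2.55 CPM of *Pdgfra* and 4.97 and 4.83 CPM of *Pdgfrb*. In ECs with little collagen RNA, *Pdgfa* was at 56.0 and 68.8 CPM and *Pdgfd* at 37.9 and 35.2 CPM. Free RNA at the same share would give 1.53 and 2.05 CPM of *Pdgfa* and 0.590 and 1.00 CPM of *Pdgfd*. Whether this share holds in ECs was not tested.

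*Pdgfb* was at 125 and 90.2 CPM in ECs with little collagen RNA and at 49.4 and 42.9 CPM in those with more. *Pdgfc* had 0 and 1 UMIs in the former, where a UMI was found in 0 of 85 cells, which for cells with a UMI leaves room for a share of 3.53%, and in 1 of 125 cells. At this depth a cell can hold *Pdgfc* RNA without a UMI. The limit of 20 collagen UMIs was set after the data were seen and only for ECs, so these levels are a description, with no test, and whether the collagen RNA came from other cells in the same droplet was not tested.

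**Figure D5:**
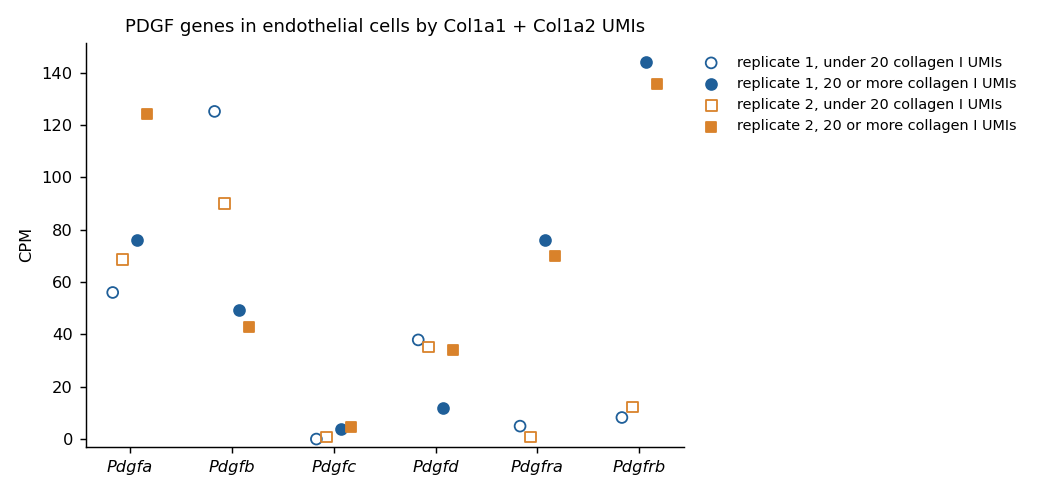
Level in CPM (y axis, linear) of each member (x axis) in ECs with under 20 (open symbols) and with at least 20 (filled symbols) UMIs of *Col1a1* and *Col1a2*. Circles are replicate 1 and squares replicate 2. The receptor genes separate the groups, with *Pdgfrb* at 8.24 and 12.2 CPM against 144 and 136 CPM.

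A list of 54 genes covered ligand processing and binding, steps downstream of the receptors, inhibitors, and the related receptor kinases *Kit*, *Csf1r* and *Flt3*. Of these, 53 passed the filter on low counts in the 4-class fit, *Flt3* being the exception. Between *Myh11*-low and *Myh11*-high cells the median log2 fold change of the list was 0.15 against 0.03 over all genes. Without the block, edgeR called 1 of 53 genes higher and 0 lower, where 0.873% of all genes were higher and 2.43% lower. DESeq2 called 4 of 53 in either direction, where it called 1312 of 14095 genes. With the library as a block, 13 of 53 genes of the list were higher and 5 lower (edgeR), where 11.2% of all genes were higher and 11.6% lower. The latter included *Plau*, the urokinase that can activate PDGF-D (-1.65 ± 0.25, adjusted p = 0.00426), and *Pcsk5*, a proprotein convertase (-1.20 ± 0.16, adjusted p = 0.00212), which were chosen after their values were seen. Without the block neither passed the threshold (-1.50, adjusted p = 0.18 for *Plau* and -1.24, adjusted p = 0.0918 for *Pcsk5*). Other enzymes of this kind went the other way. With the block *Plat*, the tissue plasminogen activator (0.66 ± 0.12, edgeR, adjusted p = 0.00893), and *Pcsk6*, another proprotein convertase (0.67 ± 0.19, adjusted p = 0.0387), were higher. Of the 10 genes of ligand processing and binding, 4 were higher and 3 lower with the block, and 0 were called without it. *Klf4*, a transcription factor of VSMC modulation, was higher in *Myh11*-low than in *Myh11*-high cycling cells (0.82 ± 0.15, adjusted p = 0.0335), the only gene of the list called in that comparison by edgeR without the block. DESeq2 called 2 of 53, where it called 916 of 12890 genes. With the library as a block 8 of 53 were higher and 2 lower, where 7.11% of all genes were higher and 9.87% lower. Between cycling and *Myh11*-low cells 0 of 53 were called by edgeR without the block or by DESeq2, and 2 had an unadjusted p under 0.05. With the library as a block 1 was higher and 1 lower, where 1928 and 1155 of 14095 genes were.

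In ECs, 14 of 53 genes of the list were higher and 7 lower, where 23.6% of all genes were called in either direction. The largest difference was in *Kit*, the stem cell factor receptor related to the PDGF receptors, at 22.9 and 24.6 CPM in ECs and at most 1.14 CPM in the 3 other classes (4.73 ± 0.38, edgeR, adjusted p = 0.000312). *Plat*, the tissue plasminogen activator that can activate PDGF-C, was at 167 and 264 CPM in ECs and 8.51 to 20.6 CPM elsewhere (3.67 ± 0.23, adjusted p = 0.000121). *Nrp2*, *Dusp6*, a phosphatase that limits ERK signaling, and *Nck1*, an adaptor, were the next of the genes that were higher. Those lower in ECs were led by *Pdgfrl*, a receptor-like gene (-2.17 ± 0.38, adjusted p = 0.00767), *Spry1*, an inhibitor of receptor tyrosine kinase signaling (-2.12 ± 0.18, adjusted p = 0.000415), and *Lrp1*, a co-receptor of PDGFRβ (-1.76 ± 0.20, adjusted p = 0.00152), followed by *Pik3r2* and *Src*.

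Genes with the most similar course to each member were ranked by Pearson's r of log2(CPM + 1) over the 8 sums of library and class, among 8052 genes with a mean of at least 10 CPM. The points share libraries, and the EC class alone can set r for *Pdgfb*. For *Pdgfa* the highest were *Ttll7* (r = 0.977), *Mfge8* (0.973), *Fjx1* (0.972), *Dmxl1* (0.971) and *Lrrfip1* (0.971). *Mfge8*, a secreted milk fat globule protein made by VSMCs, was at 393 and 421 CPM in *Myh11*-high and 88.4 and 93.2 CPM in *Myh11*-low cells. For *Pdgfc* they were *Maob* (0.991), *Sync* (0.987), *Pomgnt1* (0.982), *Wtip* (0.982) and *Hacd1* (0.979). *Pdgfra* was followed by *Efr3a* (0.990), *Heph* (0.989), *Clmp* (0.989) and *Abca8a* (0.987), and *Pdgfrb* by *Dact3* (0.993), *Mmp14* (0.989), *Farp1* (0.989), *Col14a1* (0.989) and *Ddr2* (0.989), the last a collagen receptor. *Pdgfb* had *Ehd4* (0.998), *Myct1* (0.997), *Kif5c* (0.996), *Rasgrp3* (0.995) and *Fam174b* (0.994), and *Pdgfd*, whose own range was narrow, *Rpl36al* (0.967), *Asb8* (0.95), *Uqcrb* (0.949), *Psma3* (0.947) and *Psma2* (0.942).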

How the data were processed

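Primary aortic VSMCs of wildtype mice were analysed in 2 libraries (replicates 1 and 2). The authors aligned the reads with Cell Ranger (version 3.0.2 per the labels, 3.0.2 and 3.1.0 per the file headers) and deposited raw UMI counts per gene and barcode, without normalization, together with empty droplets. The genome build is not given in the sources used here. Of the 31053 gene identifiers, 30934 are in GENCODE M21.

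UMI counts were summed per library and class and expressed as CPM. Because 3′ UMI counts do not scale with transcript length, no length correction was made. Tests used the edgeR (4.0.16) quasi-likelihood F test with TMM normalization, filterByExpr and Benjamini-Hochberg adjustment over all genes (threshold 0.05), on 8 sums, or 10 with cycling cells split. The SE of a fold change was derived from F (its size divided by the root of F). No p-value comes from cells, and no permutation of 2 libraries could fall below 0.33. Sums of 1 library come from 1 culture and are paired. Their deviations from class means correlated at 0.25 to 0.80, and values with this block are given where they change a call. Thinned shares are hypergeometric expectations at 3000 UMIs. Barcodes of 1 to 100 UMIs served as the profile of free RNA. Doublets were kept. Alternatives included DESeq2 (1.42.0), and the fits were tested on simulated counts.

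The members, classes and gene lists were chosen with earlier results of these data known. Named genes are the 6 members, up to 5 called genes of the pathway list per direction and comparison, and the 5 genes most like each member. Results of 2 genes that this rule names are not reported here. The limit of 20 collagen UMIs and the exclusion by 4 adventitial genes were added after the data were seen.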

Additional observations from a re-analysis of the deposited data

How the results depend on the processing

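The depth of *Pdgfb* outside ECs (50 and 42 UMIs) and of *Pdgfc* in ECs (3 and 3 UMIs) limits what can be said of them, and 2 libraries leave 4 residual degrees of freedom. The values of single members under the alternatives numbered 348, without those of *Pdgfra* and *Pdgfrb* in *Myh11*-low against *Myh11*-high cells and of *Pdgfb* in ECs. Of these, 308 kept their direction and, in the fits, their side of the threshold, or with a library left out stayed within the spread between libraries. With 2 libraries, each value lies within that spread of their mean by construction. Values kept on this ground are therefore no evidence of stability. In the fits, 4 lost a call, 16 gained one and 2 changed sign. With a library left out, 18 moved by more than that spread or, where no call had been made, to the other sign. Among these was *Pdgfd* in *Myh11*-low against *Myh11*-high cells, at 0.08 without replicate 2. The 2 that changed sign in the fits were of *Pdgfd* in ECs, which was 0.22 with thinned cells and 0.0747 without ECs with 20 or more collagen UMIs, in neither case past the threshold. The lost calls were *Pdgfb* in *Myh11*-low against *Myh11*-high cells and *Pdgfc* in ECs and in cycling cells with thinned cells, and *Pdgfra* in ECs with cycling cells also kept in the *Myh11* classes.

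With the replicate block, in which the libraries pair the sums, the genes called in *Myh11*-low against *Myh11*-high cells went from 466 to 3209, in cycling against *Myh11*-low cells from 721 to 3083, in ECs from 3324 to 5167 and in *Myh11*-low against *Myh11*-high cycling cells from 371 to 2188. *Pdgfra* and *Pdgfrb* in *Myh11*-low cells became 1.91 and 0.52 and passed the threshold under this block. It also brought *Pdgfa* in ECs and *Pdgfb* and *Pdgfra* in the split cycling cells past the threshold, and it changed no other call of a member.

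For *Myh11*-low against *Myh11*-high cells, 789 genes were called without a filter on low counts, 1312 by DESeq2 and 971 without cells with adventitial UMIs. *Pdgfra* passed the threshold under these as well, at 1.82, 1.76 and 2.23. Under the alternatives other than these and the block, its values ran from 1.56 to 1.915. Their adjusted p ran from 0.0662 to 0.189, so that none passed the threshold. For cycling against *Myh11*-low cells, DESeq2 called 1264 genes, and 229 were called with cycling cells also in the *Myh11* classes. For ECs, thinning gave 2035 calls. For the split cycling cells, 562 were called without the filter, 916 by DESeq2, 569 with *Myh11* classes by CPM, 219 with thinning and 813 without adventitial UMIs. The cause of these moves was not tested. Leaving out a library, which leaves 1 sum per class and gives differences without a test and no count of calls, put *Pdgfb* in ECs between 7.50 and 8.15, *Pdgfra* in *Myh11*-low against *Myh11*-high cells between 1.37 and 2.69 and *Pdgfrb* between 0.23 and 0.98. The ratio of observed to expected *Myh11*-low cells with both receptor genes, 1.02 on average and 1.01 to 1.03 by library, was 1.06 with thinned cells and 1.05 at 2 UMIs of each gene.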
